A study of Mus musculus with 6 samples.

Results

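Histone lysine methyltransferases and demethylases were followed in mouse TgSpi1 erythroleukaemic cells, leukaemic erythroid cells of bone marrow that overexpress the transcription factor PU.1, the product of Spi1. Genes were chosen by symbol: the KDM, KMT, SETD, NSD, SUV39H, EHMT and PRDM series with Dot1l, Ash1l, Setdb1 and Setdb2. The deposited table held 54 of them among 25628 symbols. The treated group was cells carrying a doxycycline-inducible shRNA against Spi1 that were given doxycycline for 48 h. The untreated group was the same cells, with the same shRNA construct, left without doxycycline. Both groups were cultured with EPO, and the series design names 1 cell source, #722, for all of them. Each group had 3 libraries numbered 1 to 3, which the labels call biological replicates. There was no group without the shRNA construct and no group given doxycycline without it, so that an effect of doxycycline itself and of the shRNA cannot be told apart.

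Lysine methylation of histone tails marks chromatin states. Methylation of histone H3 at lysine 4, 36 or 79 is found at active genes, and at lysine 9 or 27 at silenced ones. SET domain enzymes, and DOT1L with a different fold, add the methyl groups. KDM1 enzymes remove them by an FAD-dependent oxidation, and the JmjC enzymes by an oxidation that needs iron and 2-oxoglutarate. In blood cells KMT2A is known as the MLL protein of leukaemia, and KDM1A works with the GFI1 repressors in erythroid and myeloid differentiation.

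The label of the cells and the knockdown were checked first. Spi1 stood at 84.8, 80.4 and 62.1 CPM (counts scaled to the library size) in doxycycline libraries 1, 2 and 3, against 414.5, 353.5 and 329.6 CPM in untreated libraries 1, 2 and 3. It fell with doxycycline (log2 fold change -2.27, SE 0.17, edgeR adjusted p = 0.0030). Total counts lay between 78926663 and 101276319 per library. Summed erythroid markers were between 4615 and 6959 CPM with doxycycline and between 3962 and 5205 CPM untreated. Of 12 tested erythroid markers none passed without the replicate number as a block, and 7 rose and 1 fell with it. Over all genes tested, 10.3% were called higher and 15.6% lower with the block, and 0.417% and 2.18% without it. Tfrc was the largest single part of the erythroid sum in each library. Neutrophil and monocyte markers summed to between 0.900 and 12.7 CPM with doxycycline and between 4.89 and 51.4 CPM untreated, and 1 of 9 tested fell, or 4 with the block. Megakaryocyte markers summed to between 38.4 and 159 CPM with doxycycline and between 64.4 and 299.8 CPM untreated. Of 6 tested, none passed without the block, and 1 rose and 4 fell with it. Mast cell and basophil markers summed to between 8.65 and 50.8 CPM with doxycycline and between 3.35 and 62.0 CPM untreated, and 1 of 3 tested fell with the block. Part of the spread of these sums lay between replicate numbers. S100a9 had 0.011, 4.08 and 3.27 CPM in doxycycline libraries 1, 2 and 3, and 0.034, 14.9 and 3.34 CPM untreated. Pf4 had 141.6, 94.0 and 22.9 CPM with doxycycline, and 260.0, 165.0 and 37.4 CPM untreated. Fcer1a had 50.5, 23.2 and 8.40 CPM with doxycycline, and 61.3, 34.8 and 2.65 CPM untreated. Sums for B cells, T and NK cells, and stroma and endothelium did not exceed 7.42 CPM in any doxycycline library or 5.20 CPM in any untreated one, and both tested T and NK cell markers rose with the block. Ly6g, Klrb1c, Mcpt8, Prss34, Cxcl12 and Pdgfra had a deposited count of 3 or less in every library. The part of other cell types in the results below was not tested. Fewer cells of a type and less RNA per cell cannot be told apart in these bulk samples.

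None of the 48 genes that passed the low count filter was called without the replicate block (edgeR, adjusted p under 0.05). Of all 14158 genes tested, 2.59% were called (0.417% higher and 2.18% lower). Kdm7a was the 1 gene of the 48 with an unadjusted p under 0.05, where 15.4% of all genes had one. DESeq2 without the block called none of the 48 either, where it called 7.15% of all genes. It gave an unadjusted p under 0.05 for 2 of the 48, and that share over all genes was not computed. With the replicate number as a block 4 rose and 2 fell by edgeR, where 10.3% of all genes were called higher and 15.6% lower, 25.8% in all. The 6 were Kdm7a, Suv39h2, Setd6 and Prdm4, which rose, and Kdm2a and Prdm9, which fell. The share of called genes among the 48 was thus below that of all genes. The median log2 fold change of the 48 was -0.07 without the block and -0.10 with it, beside 0.01 and -0.00 over all genes tested. The 6 genes that the filter removed were Kdm4d, Kdm5d, Prdm8, Prdm11, Prdm12 and Prdm14. None of those had a deposited count above 8 in any library.

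**Figure D1:**
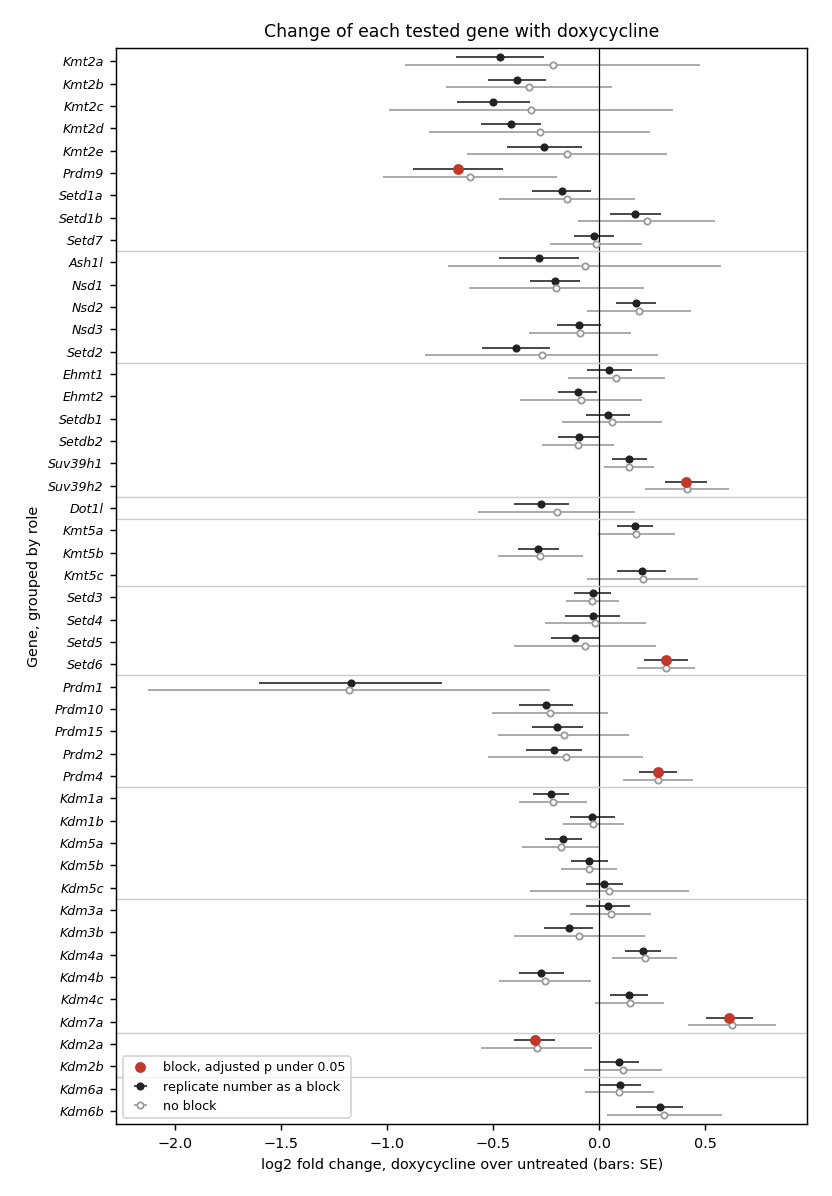
Log2 fold change of the 48 tested genes, doxycycline over untreated, grouped by role, with SE bars. Black points are values with the replicate block, grey open points the fit without it, and red points the 6 genes with an adjusted p under 0.05 with the block. Kdm7a at 0.61 stands highest.

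Few genes separated the groups. The CPM of Kdm7a, Suv39h1 and Setd6 were higher in every doxycycline library than in any untreated one. These were 3 of the 48, where 8.88% of all genes tested were higher without overlap. None of the 48 was lower without overlap, where 11.7% of all genes were, and 20.6% of all genes were apart in either direction. Within pairs of equal replicate number 10 of the 48 were higher with doxycycline in all 3 pairs and 9 lower in all 3, where 28% and 29.4% of all genes were. These shares lie at or below those of all genes.

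Kdm7a, a JmjC demethylase of H3 lysine 9 and lysine 27, showed the largest rise with the block. The gene (ENSMUSG00000042599.8) lies on chromosome 6 from 39136623 to 39206789 on the minus strand of GRCm38. It had 36.8, 32.2 and 48.9 CPM in doxycycline libraries 1, 2 and 3, against 21.8, 25.3 and 29.4 CPM in untreated libraries 1, 2 and 3. Each doxycycline library was above all untreated ones. The log2 fold change was 0.61 with the block (SE 0.11, edgeR adjusted p = 0.0029) and 0.62 without it (SE 0.21, edgeR adjusted p = 0.20). The antisense gene 4930599N23Rik shares 287 exon bases with it and stayed between 0.0411 and 0.0988 CPM in doxycycline libraries and between 0.0453 and 0.0510 CPM in untreated ones.

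Suv39h2, which trimethylates H3 lysine 9 in heterochromatin, was the second riser with the block. It lies on chromosome 2 from 3455815 to 3475031 on the minus strand. It had 75.0, 57.3 and 51.4 CPM in doxycycline libraries 1, 2 and 3, against 51.6, 48.7 and 37.6 CPM in untreated libraries 1, 2 and 3. The lowest doxycycline library lay just under the highest untreated one, and each pair of equal number was higher with doxycycline, by 0.54, 0.23 and 0.45 on the log2 scale. The log2 fold change was 0.41 with the block (SE 0.10, edgeR adjusted p = 0.012), and the adjusted p was 0.39 without it. Dclre1c on the other strand shares 357 exon bases with it, and had 14.6, 23.5 and 11.5 CPM in doxycycline libraries, against 15.8, 23.8 and 16.5 CPM in untreated ones. Reads from such overlapping partners cannot be told apart without strand.

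Setd6, a SET domain enzyme known to methylate the NF-kappaB subunit RelA, had 26.8, 28.0 and 25.6 CPM in doxycycline libraries 1, 2 and 3, against 20.5, 21.9 and 22.3 CPM in untreated libraries 1, 2 and 3. The gene is on chromosome 8 from 95715881 to 95719010 on the plus strand. The groups did not overlap, and the libraries of a group lay close together. The log2 fold change was 0.32 with the block (SE 0.10, edgeR adjusted p = 0.047) and the adjusted p 0.34 without it. Prdm4, a zinc finger factor of the PRDM family, had 50.5, 64.6 and 55.5 CPM in doxycycline libraries 1, 2 and 3, against 40.7, 53.2 and 47.1 CPM in untreated libraries 1, 2 and 3. Its groups overlapped while all 3 pairs were higher with doxycycline. Its log2 fold change was 0.28 with the block (SE 0.09, edgeR adjusted p = 0.044), and the adjusted p was 0.51 without it.

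The promoters of Kdm7a and Suv39h2, the largest rises, and of Setd6, whose groups did not overlap, are shown because the agent of the experiment lowers PU.1, which binds purine-rich sites with the core GAGGAA. Each is 250 bases before to 50 bases after the gene start from RefSeq (GRCm38.p6), 5′ to 3′ on the strand of the gene, at chr6:39206724-39207023, chr2:3474937-3475236 and chr8:95715663-95715962. Capitals mark the letters GAGGAA or their reverse complement TTCCTC.
Kdm7a: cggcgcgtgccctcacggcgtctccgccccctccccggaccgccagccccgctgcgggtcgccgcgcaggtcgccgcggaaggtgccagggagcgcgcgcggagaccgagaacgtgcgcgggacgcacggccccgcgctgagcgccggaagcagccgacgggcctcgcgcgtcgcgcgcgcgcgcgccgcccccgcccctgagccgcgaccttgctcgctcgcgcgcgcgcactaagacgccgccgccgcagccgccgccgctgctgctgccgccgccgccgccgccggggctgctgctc
Suv39h2: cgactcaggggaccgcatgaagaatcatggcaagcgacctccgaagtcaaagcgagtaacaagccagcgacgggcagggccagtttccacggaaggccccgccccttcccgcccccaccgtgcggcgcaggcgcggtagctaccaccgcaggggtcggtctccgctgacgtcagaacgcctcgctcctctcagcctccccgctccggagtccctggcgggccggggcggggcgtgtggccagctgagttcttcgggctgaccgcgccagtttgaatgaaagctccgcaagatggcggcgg
Setd6: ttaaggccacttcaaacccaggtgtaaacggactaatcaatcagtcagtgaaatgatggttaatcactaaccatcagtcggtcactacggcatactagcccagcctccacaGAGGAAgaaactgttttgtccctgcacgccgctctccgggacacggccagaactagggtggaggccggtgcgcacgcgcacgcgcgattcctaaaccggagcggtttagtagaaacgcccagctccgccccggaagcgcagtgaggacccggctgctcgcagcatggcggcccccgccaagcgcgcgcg
The Setd6 window held the letters once, starting at position -139 from the gene start, and the other pair of windows shown did not. Of the windows not shown, 1 of 2 for Prdm9, which fell with the block, held them at position -226, and neither of 2 for Prdm4 did. Over both strands, 28.3% of all 32851 RefSeq promoter windows held them. RefSeq windows were matched for 40 of the 54 genes, and 12 of those 40 held the letters, in 12 of 56 windows (21.4%). A match of letters is a description and not a binding site. No window was matched for Kdm2a.

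Kdm2a, a CpG island binding demethylase of H3 lysine 36, fell with the block. The gene is on chromosome 19 from 4314419 to 4398285 on the minus strand. It had 70.8, 123.2 and 82.5 CPM in doxycycline libraries 1, 2 and 3, against 83.7, 137 and 119 CPM in untreated libraries 1, 2 and 3. The groups overlapped, and every pair was lower with doxycycline. The log2 fold change was -0.31 with the block (SE 0.10, edgeR adjusted p = 0.043), and the adjusted p was 0.695 without it. Prdm9, which trimethylates H3 lysine 4 at meiotic recombination sites, was at a low level, with 1.16, 2.21 and 0.883 CPM in doxycycline libraries 1, 2 and 3, against 1.55, 2.82 and 2.12 CPM in untreated libraries 1, 2 and 3. It lies on chromosome 17 from 15543079 to 15564354 on the minus strand. Its log2 fold change was -0.66 with the block (SE 0.21, edgeR adjusted p = 0.045), and the adjusted p was 0.57 without it. These values rest on 88 to 215 deposited counts per doxycycline library and 137 to 221 per untreated one.

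**Figure D2:**
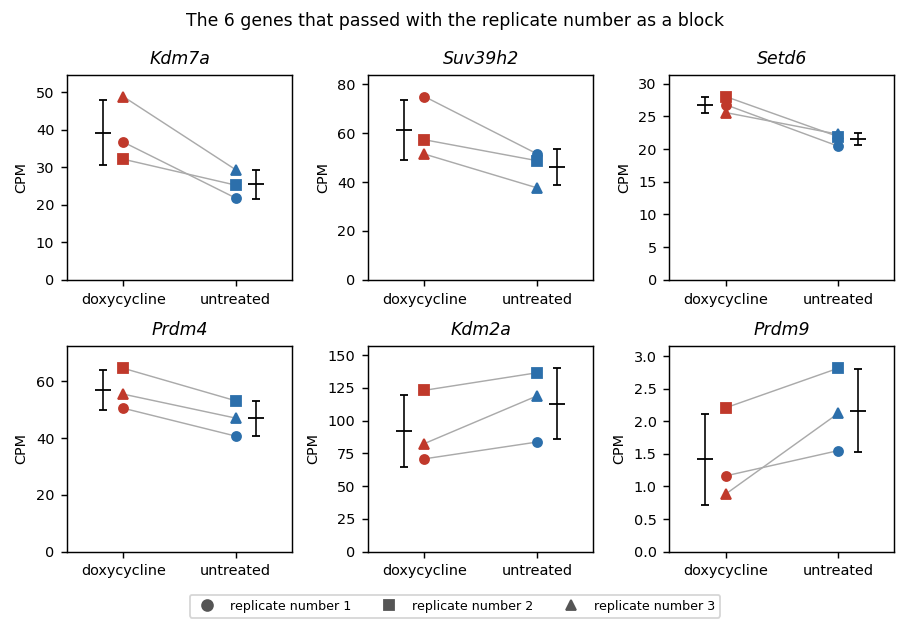
CPM of the 6 genes that passed with the replicate number as a block, in doxycycline libraries (red, left) and untreated libraries (blue, right), on axes that start at 0. Symbols mark the replicate number, grey lines join equal numbers, and black bars are mean and SD (n = 3). The groups do not overlap for Kdm7a and Setd6.

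Leaving out a pair of libraries moved the calls of the block. Without replicate number 1 none of the 48 passed by edgeR with the block, where 8.67% of all genes did. An unadjusted p under 0.05 was then found for 5 of the 48, and its share over all genes was not computed. Without number 2 there were 14 calls, 2 higher and 12 lower, where 24.1% of 14226 genes were called (1310 higher and 2119 lower). The share called lower among the 48 was then above that of all genes. Without number 3 there were 7 calls, all higher, where 33.4% of 14212 genes were called (2071 higher and 2677 lower). Kdm7a and Suv39h2 passed both without number 2 and without number 3. Kdm2a and Prdm9 passed without number 2 and not without number 3, and Setd6 and Prdm4 the other way round.

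Of 9 tested H3 lysine 4 methyltransferases none rose and 1, Prdm9, fell with the block, while all 9 differed between replicate numbers. Kmt2a, the MLL1 enzyme, had 23.4, 125 and 29.6 CPM in doxycycline libraries 1, 2 and 3, against 31.6, 108 and 68.2 CPM in untreated libraries 1, 2 and 3. Doxycycline library 2 was the highest and doxycycline library 1 the lowest, a spread of 5.35-fold. Kmt2c, which with its relative KMT2D monomethylates enhancers, had 17.5, 84.0 and 22.7 CPM with doxycycline, against 23.4, 83.6 and 48.4 CPM untreated. Kmt2d had 20.4, 78.6 and 32.2 CPM with doxycycline, against 30.7, 75.5 and 53.1 CPM untreated. In these 3 genes libraries of number 2 were the highest of their group. Kmt2b had 37.5, 94.0 and 45.8 CPM with doxycycline, against 47.4, 94.2 and 81.2 CPM untreated.

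The doxycycline difference of the KMT2 genes changed with the pair. Kmt2a was -0.43, 0.22 and -1.20 on the log2 scale in pairs 1, 2 and 3, doxycycline minus untreated. Kmt2c was -0.42, 0.01 and -1.09, and Kmt2d -0.59, 0.06 and -0.72. With the block their log2 fold changes were -0.47 (Kmt2a, edgeR adjusted p = 0.12), -0.39 (Kmt2b, 0.064), -0.50 (Kmt2c, 0.057) and -0.42 (Kmt2d, 0.054), which did not pass. DESeq2 with the block called Kmt2c and Kmt2d lower, beside Kdm7a, Suv39h2, Prdm4 and Setd6 higher, where it called 24% of all genes. It did not call Kdm2a or Prdm9. Without number 2, edgeR with the block called Kmt2a, Kmt2b, Kmt2c, Kmt2d and Kmt2e lower.

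The other H3 lysine 4 methyltransferases did not pass by edgeR over all 6 libraries with or without the block, before any length correction. Setd7, the one with the most reads in this role, averaged 161 ± 40.8 CPM with doxycycline and 162.5 ± 29.4 CPM untreated (SD, n = 3 each). Its log2 fold change was -0.01 (SE 0.22) without the block. Setd1a and Setd1b, catalytic subunits of the SET1 complexes, had block log2 fold changes of -0.18 (SE 0.14) and 0.17 (SE 0.12). Kmt2e, a relative without known catalytic activity, had -0.26 (SE 0.18).

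**Figure D3:**
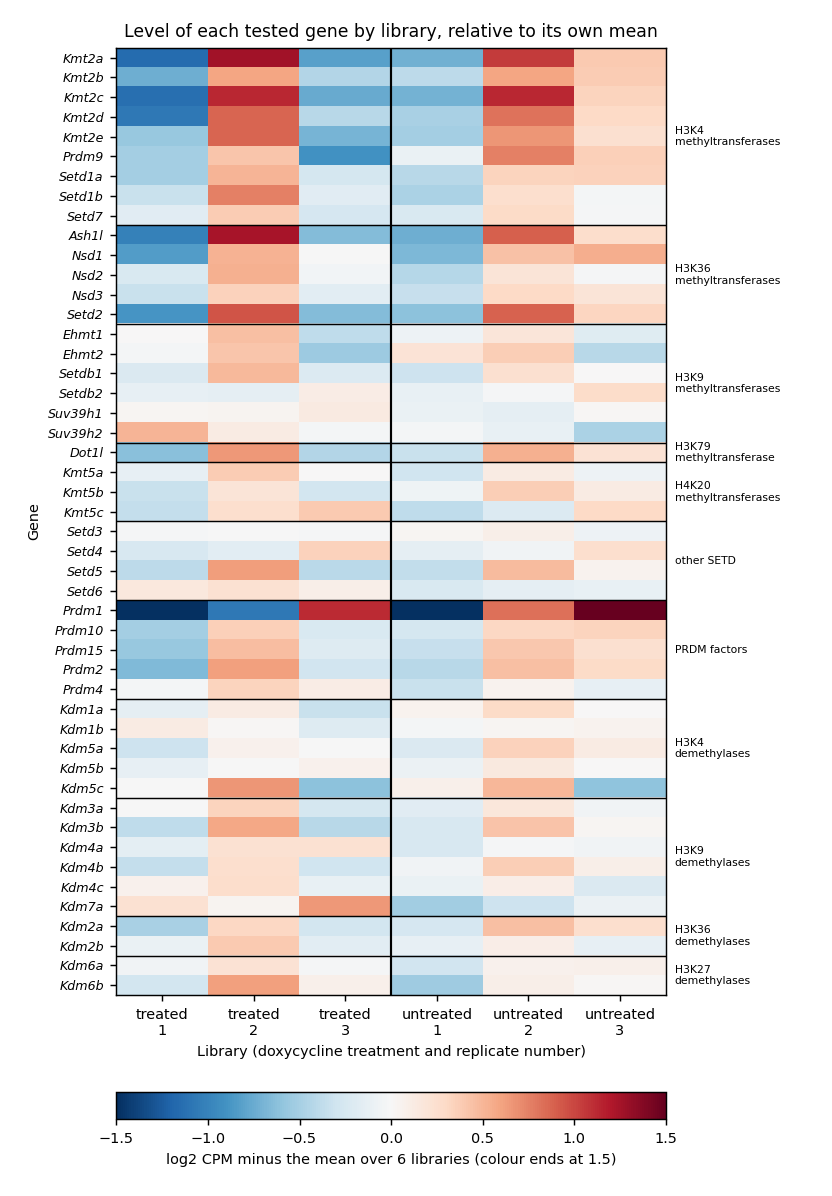
Level of the 48 tested genes in the 6 libraries as log2 CPM minus the mean of the gene over all libraries, doxycycline libraries left of the vertical line and untreated libraries right of it. Kmt2a, Kmt2c, Kmt2d, Ash1l and Setd2 are high in both libraries of number 2 and low in both of number 1.

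The H3 lysine 36 and lysine 79 methyltransferases followed a like pattern of libraries. Setd2, which places trimethylation along transcribed genes, had 37.8, 134 and 44.3 CPM in doxycycline libraries 1, 2 and 3, against 45.6, 128 and 86.6 CPM in untreated libraries 1, 2 and 3. Ash1l had 18.6, 88.4 and 23.8 CPM with doxycycline, against 22.6, 69.6 and 45.05 CPM untreated. In both, library 2 was the highest of each group. Nsd1 had 55.1, 141 and 97.9 CPM with doxycycline, against 61.4, 134 and 143 CPM untreated. Nsd2, the one with the most reads in this role, averaged 138 ± 40.0 CPM with doxycycline and 121 ± 25.5 CPM untreated (SD, n = 3 each). None of these 5 genes, Nsd3 included, passed with the block over all 6 libraries, before any length correction. Their block log2 fold changes ran between -0.39 (Setd2) and 0.17 (Nsd2). Dot1l, the only known H3 lysine 79 methyltransferase, had 71.5, 173 and 81.2 CPM with doxycycline, against 87.5, 159 and 128 CPM untreated (block log2 fold change -0.27, SE 0.13, edgeR adjusted p = 0.15).

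Among the H3 lysine 9 methyltransferases 1 of 6 rose with the block, Suv39h2, and none fell. Its relative Suv39h1 had 163, 165 and 176 CPM in doxycycline libraries 1, 2 and 3, against 149, 146 and 162 CPM in untreated libraries 1, 2 and 3. The groups did not overlap but were close, and the log2 fold change of 0.14 (SE 0.08) with the block did not pass (edgeR adjusted p = 0.23). Setdb1, which silences retroelements and had the most reads of the 6, averaged 196 ± 57.7 CPM with doxycycline and 188 ± 34.7 CPM untreated (SD, n = 3 each). Ehmt2, which encodes the dimethylating enzyme G9a, had 141, 192 and 98.7 CPM with doxycycline, against 165, 185 and 108 CPM untreated, so that libraries of number 3 were the lowest of each group. The block log2 fold changes of Setdb1, Ehmt1, Ehmt2 and Setdb2 lay between -0.10 and 0.05, with SE between 0.09 and 0.10.

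Of the H4 lysine 20 methyltransferases none of 3 passed with or without the block. Kmt5a, which monomethylates this residue in mitosis, had the most reads of the 48 and averaged 235.5 ± 43.9 CPM with doxycycline and 209 ± 30.9 CPM untreated (SD, n = 3 each). It was higher with doxycycline in all 3 pairs, by 0.18, 0.25 and 0.08 on the log2 scale. Kmt5b, which adds further methyl groups, was lower in all 3 pairs (block log2 fold change -0.29, SE 0.10, edgeR adjusted p = 0.056). Kmt5c had 0.20 (SE 0.12). Of the SETD proteins with other or unsettled substrates, Setd5 had the most reads (CPM of 134 ± 59.6 with doxycycline and 140 ± 40.6 untreated, SD, n = 3 each). Setd3, an actin histidine methyltransferase, varied least of the 48 over the 6 libraries, with a spread of 1.13-fold and 69.1, 69.4 and 68.9 CPM with doxycycline, against 71.5, 74.6 and 66.1 CPM untreated.

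Among the 5 tested PRDM factors other than Prdm9, Prdm4 was the 1 that passed with the block. Prdm9, which also passed, was counted above by its methyltransferase role. Prdm1, which encodes the repressor BLIMP1 of plasma cells, had deposited counts of 2, 3 and 14 in doxycycline libraries 1, 2 and 3, against 2, 9 and 30 in untreated libraries 1, 2 and 3. At these low counts Prdm1 did not pass with the block (log2 fold change -1.17, SE 0.43, edgeR adjusted p = 0.073). Prdm2, a zinc finger factor linked to H3 lysine 9, averaged 36.2 ± 17.3 CPM with doxycycline and 40.4 ± 11.8 CPM untreated (SD, n = 3 each). Prdm10 and Prdm15 had block log2 fold changes of -0.25 (SE 0.13) and -0.20 (SE 0.12).

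No H3 lysine 4 demethylase passed with or without the block. Kdm1a, the LSD1 enzyme, had 148, 177 and 129 CPM in doxycycline libraries 1, 2 and 3, against 168, 198 and 163 CPM in untreated libraries 1, 2 and 3. It was lower with doxycycline in every pair, with differences of -0.19, -0.16 and -0.33 on the log2 scale, and the groups overlapped (block log2 fold change -0.23, SE 0.09, edgeR adjusted p = 0.077). Its relative Kdm1b had 39.7, 36.7 and 31.9 CPM with doxycycline, against 35.6, 37.2 and 37.7 CPM untreated. Kdm5c, the X-linked member of the KDM5 family and the one with the most reads in this role, averaged 174 ± 76.2 CPM with doxycycline and 168 ± 61.5 CPM untreated (SD, n = 3 each). Its spread lay between replicate numbers, with 105 CPM with doxycycline and 106 CPM untreated at number 3. Kdm5a and Kdm5b had block log2 fold changes of -0.17 (SE 0.09) and -0.05 (SE 0.09), and the Y-linked Kdm5d had at most 3 deposited counts in any library.

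Of the H3 lysine 9 demethylases Kdm7a alone of 6 tested passed with the block, before any length correction. Kdm4a, which also acts on lysine 36 and had the most reads in this role, had 158, 206 and 204 CPM in doxycycline libraries 1, 2 and 3, against 148, 173 and 169 CPM in untreated libraries 1, 2 and 3. It was higher in all 3 pairs (block log2 fold change 0.21, SE 0.09, edgeR adjusted p = 0.105). Kdm4b was lower in all 3 pairs (-0.27, SE 0.10, edgeR adjusted p = 0.083) and Kdm4c higher in all 3 (0.14, SE 0.09). Kdm3a and Kdm3b, which remove H3 lysine 9 mono- and dimethylation, had block log2 fold changes of 0.04 (SE 0.10) and -0.14 (SE 0.12).

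The other lysine 36 demethylase and those of lysine 27 did not pass over all 6 libraries with or without the block, before any length correction. Kdm2b, which recruits a polycomb complex to CpG islands, averaged 74.3 ± 16.3 CPM with doxycycline and 68.8 ± 6.35 CPM untreated (SD, n = 3 each). Kdm6a, the X-linked UTX enzyme, averaged 47.2 ± 4.84 CPM with doxycycline and 44.3 ± 5.96 CPM untreated. Kdm6b, its stimulus-induced relative JMJD3, had 27.9, 51.7 and 35.5 CPM in doxycycline libraries 1, 2 and 3, against 23.3, 35.8 and 34.0 CPM in untreated libraries 1, 2 and 3. Each pair of Kdm6b was higher with doxycycline, by 0.26, 0.53 and 0.06 on the log2 scale (block log2 fold change 0.28, SE 0.11, edgeR adjusted p = 0.089).

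Differences between replicate numbers 2 and 1 went with coding length, and those between numbers 3 and 1 less so. Of the 48 genes, 38 differed between numbers (edgeR, adjusted p under 0.05 with the group as a term), where 43.3% of all genes tested did. Coding length was taken from the annotated transcript with the longest coding sequence. Across the 48 genes, the difference of number 2 minus number 1 had a Spearman rho of 0.73 with coding length, and across 10981 tested protein-coding genes it was 0.62. For number 3 minus number 1 rho was 0.47 across the 48 genes and 0.18 across the protein-coding genes. All genes share the same 6 libraries, so these are descriptions. For the 6 genes with a coding length of 8000 bases or more, Kmt2a, Kmt2b, Kmt2c, Kmt2d, Ash1l and Nsd1, number 2 exceeded number 1 by a median of 1.80 on the log2 scale. Over the 111 protein-coding genes of that length the median was 1.29. For the 8 genes under 2000 bases it was 0.08, and over the 7811 protein-coding genes of that length -0.10.

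Coding length also went with the doxycycline difference, most in pair 3. Across the 48 genes rho was -0.463, 0.066 and -0.574 in pairs 1, 2 and 3. Across the protein-coding genes it was -0.075, 0.049 and -0.271, so that pair 1 showed little of it there outside the longest genes. For the 6 genes of 8000 bases or more the median difference, doxycycline minus untreated, was -0.38, 0.07 and -0.87 on the log2 scale in pairs 1, 2 and 3. For all 111 protein-coding genes of that length it was -0.34, -0.04 and -0.73. The 8 genes under 2000 bases had 0.10, 0.21 and 0.10, and all protein-coding genes of that length -0.01, -0.01 and 0.01. What a replicate number stands for is not given in the sources used here.

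**Figure D4:**
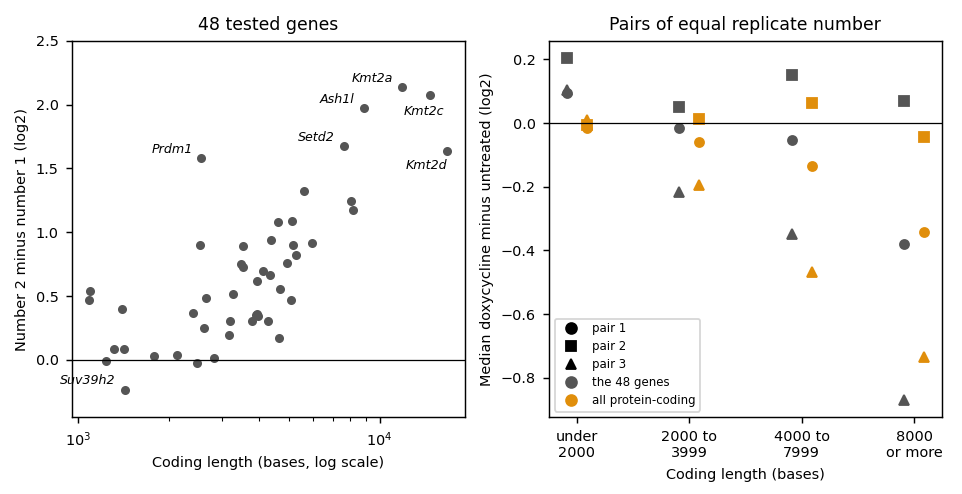
Left, number 2 minus number 1 (log2, with the group as a term) against coding length on a log axis for the 48 tested genes. Right, the median doxycycline minus untreated difference (log2) by coding length in the 3 pairs of equal number, grey for the 48 genes and orange for all tested protein-coding genes, with pair 3 lowest at 8000 bases or more.

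A trend on coding length was also taken off each library, a choice made after the data were examined. With this and the replicate block, 11 of the 48 rose and 1 fell by edgeR. Of the 10981 protein-coding genes tested, 34.1% were called, 1750 higher and 1999 lower. The share of risers among the 48 was thus above that of the protein-coding genes, and the share that fell was below it. Kdm7a (0.73), Suv39h2 (0.44), Setd6 (0.35), Prdm4 (0.36) and Prdm9 (-0.57) passed as before, and Kdm2a (-0.17, adjusted p = 0.13) did not. Risers beside these were Kdm6b (0.48, SE 0.09), Setd1b (0.40, SE 0.09), Nsd2 (0.34, SE 0.08), Kdm4a (0.33, SE 0.09), Kdm6a (0.27, SE 0.09), Kdm4c (0.27, SE 0.09) and Kdm2b (0.25, SE 0.08). The KMT2 genes stood between -0.13 (Kmt2a) and -0.01 (Kmt2d). The median of the 48 was then 0.05, beside 0.02 over all genes tested, so that the sign of this median changed with the correction.

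Levels were compared between genes per kilobase of the mRNA with the longest coding sequence. Kmt5a was the highest, with 165 ± 30.8 CPM per kilobase with doxycycline and 146.5 ± 21.7 untreated (SD, n = 3 each). Suv39h1 followed with 60.5 ± 2.39 and 54.9 ± 3.12, and Kdm1a with 49.98 ± 7.99 and 58.2 ± 6.27 CPM per kilobase, with doxycycline and untreated. The order of these 2 turned round between the groups. Next, within each other's spread, were Setdb1 (42.0 ± 12.4 and 40.3 ± 7.44), Kdm4a (40.6 ± 5.87 and 35.0 ± 2.87) and Ehmt2 (35.7 ± 11.6 and 38.0 ± 9.95). The large KMT2 mRNAs were near the low end: Kmt2a had 3.60 ± 3.46 and 4.20 ± 2.31, Kmt2c 2.77 ± 2.47 and 3.46 ± 2.02, and Kmt2d 2.21 ± 1.55 and 2.68 ± 1.13 CPM per kilobase, with doxycycline and untreated. Kdm7a had 4.11 ± 0.903 and 2.66 ± 0.396, and Prdm9 and Prdm1 were the lowest of the 48. Isoform use is not known from counts per symbol, and another transcript choice would move these levels. The levels of long genes also depend on which libraries are averaged, since differences between replicate numbers went with coding length.

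**Figure D5:**
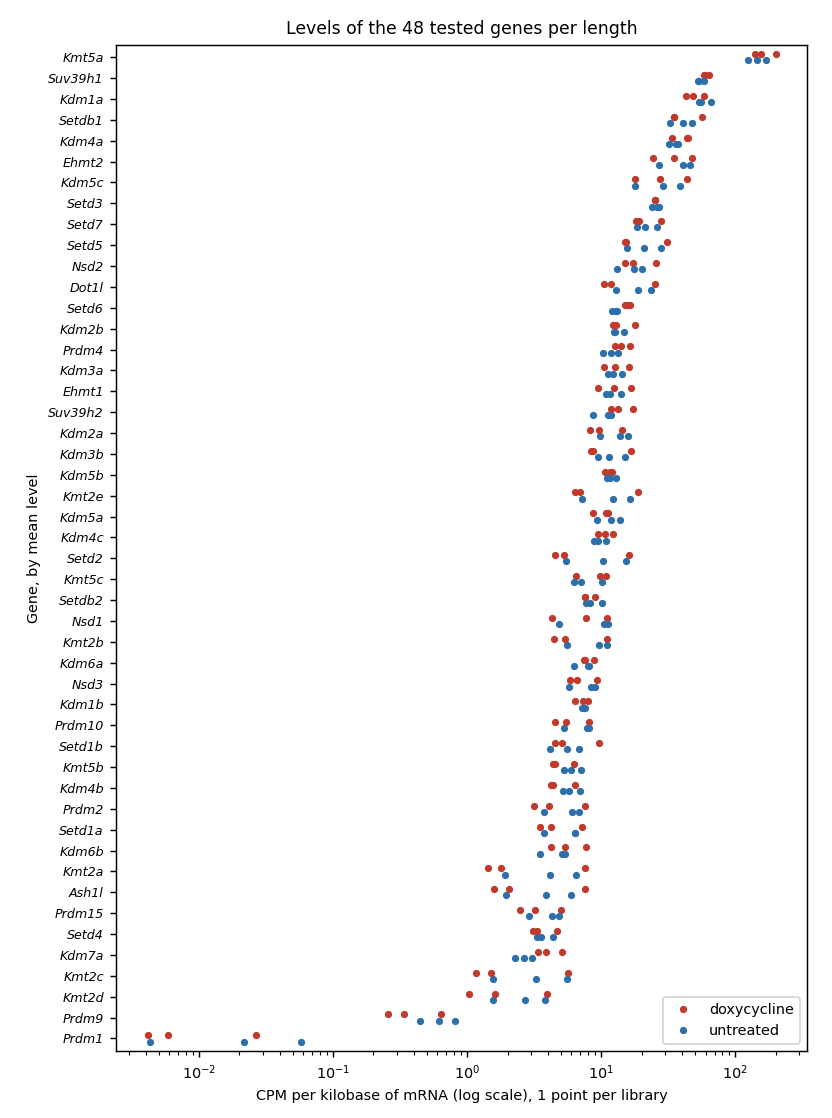
CPM per kilobase of mRNA (log axis) for the 48 tested genes, ordered by mean level, with 1 point per library, doxycycline in red and above untreated in blue. Kmt5a is at the top and Prdm1 at the bottom, and the 6 libraries of Kmt2a spread over 5.35-fold.

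Partners of these enzymes were examined as lists. Of 66 tested partner genes, none rose and 1 fell without the block, where 2.59% of all genes were called. With the block 6 rose and 8 fell, where 10.3% of all genes rose and 15.6% fell, so the partners as a whole were called at no higher share than all genes. The median log2 fold change was 0.05, beside 0.01 over all genes tested. The gene that fell without the block was Glyr1, which encodes the nucleosome-binding cofactor of KDM1B (chromosome 16 from 5013909 to 5049863 on the minus strand). It had 39.0, 44.2 and 45.1 CPM in doxycycline libraries 1, 2 and 3, against 84.5, 95.7 and 105.7 CPM in untreated libraries 1, 2 and 3. Each doxycycline library stood below every untreated one (log2 fold change -1.16, SE 0.15, edgeR adjusted p = 0.014). Without the block the adjusted p was 0.078 when doxycycline library 1 was left out, 0.0515 without untreated library 1 and 0.072 without untreated library 2, and it passed with each other library left out. It was 1 of 11 tested genes in a list that joined partners of KDM1A (LSD1) and of KDM1B. Rcor2, a CoREST subunit, rose with the block (4.08 ± 1.28 CPM with doxycycline and 2.66 ± 0.295 CPM untreated, log2 fold change 0.58, edgeR adjusted p = 0.029).

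Of 14 tested COMPASS subunits and partners, 2 rose with the block and none fell. Wdr82, which belongs to the SET1 complexes, averaged 217 ± 12.9 CPM with doxycycline and 176 ± 5.12 CPM untreated, and Bod1 20.3 ± 3.88 CPM with doxycycline and 14.2 ± 1.51 CPM untreated (SD, n = 3 each). Their block log2 fold changes were 0.30 (edgeR adjusted p = 0.029) and 0.50 (edgeR adjusted p = 0.0085), and the groups did not overlap for either. Of 12 readers and partners of H3 lysine 9 methylation, Cdyl (0.44) and Tasor (0.35), a HUSH subunit, rose and Pphln1 (-0.28), another HUSH subunit, fell with the block, with edgeR adjusted p of 0.0055, 0.038 and 0.0315.

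Of 11 tested partners of DOT1L and the super elongation complex, Mllt3, which encodes the reader AF9, rose with the block (0.33, edgeR adjusted p = 0.034) and 3 fell. Aff3 had 10.4, 25.5 and 3.04 CPM in doxycycline libraries 1, 2 and 3, against 30.2, 57.8 and 21.7 CPM in untreated libraries 1, 2 and 3, and fell in each pair (block log2 fold change -1.81, SE 0.25, edgeR adjusted p = 5.67e-04). Aff4 (-0.42) and Aff1 (-0.31) were the others. Of 13 tested JmjC proteins outside the symbol rule, 3 fell with the block and none rose. Phf8, a demethylase of H3 lysine 9 and H4 lysine 20, had differences of -0.53, -0.53 and -0.47 in pairs 1, 2 and 3 (block log2 fold change -0.51, SE 0.09, edgeR adjusted p = 0.0021). Jarid2, a PRC2 partner without demethylase activity, had -0.55 and Hif1an, an asparagine hydroxylase, -0.29, with edgeR adjusted p of 0.023 and 0.028. Of 5 tested lysine methyltransferases outside the rule none passed with or without the block, and the one with the most reads, Smyd2, averaged 117 ± 13.8 CPM with doxycycline and 99.5 ± 7.46 CPM untreated (SD, n = 3 each).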

How the data were processed

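Libraries of poly(A) RNA were made with the TruSeq RNA v2 kit, which is not strand-specific, per the labels' protocols. For 6 libraries the authors deposited raw read counts by gene symbol. STAR, DESeq2, bcl2fastq 2.17.1.14 and the builds mm10 and GRCm38 are named, with no role, per the submitters' processing notes. The read counter, the annotation it used and its strand setting are not stated there. The smallest deposited count was 1 in each library, so 1 may have been added to every value.

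Differential expression was tested with edgeR 4.0.16 (quasi-likelihood F test, two-sided, TMM factors, filterByExpr; limma 3.58.1, R 4.3.3) on 14158 genes, with the group as the only term and Benjamini-Hochberg adjusted p under 0.05 as the threshold. CPM use TMM-scaled library sizes. Standard errors were taken as |log2 fold change| over the root of the F statistic. A replicate block was added to the model as an alternative. Deviations from the group mean correlated across genes between libraries of equal number (0.77, 0.74 and 0.72), and this is where the pairing comes from, since the labels give the numbers no meaning. Other alternatives were median-ratio size factors, DESeq2 1.42.0, no filter, 1 taken off each value, libraries or pairs left out, and, added after the data were examined, a trend on coding length as an offset, fitted per library over 10981 protein-coding genes.

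On simulated data with the replicate number effects of these libraries, the fit without the block recovered 0 of 100 genes changed 2-fold and the fit with it 100 of 100. At 1.5-fold they recovered 0 and 80 of 100. The fit with the block also made 13 false calls among 13899 genes, and the fit without it 0. With no replicate number effect the fit without the block recovered 100 of 100 at 2-fold and 88 of 100 at 1.5-fold, with 12 false calls. The counts were drawn from the block model with its own dispersions, so the comparison favours the block by construction. No change of the doxycycline effect between numbers was simulated. The recovery is therefore no measure of power in the real data, where the fit without the block called 2.59% of all genes.

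Genes were chosen by symbol, and the genes, roles and partner lists were chosen with earlier results of these data known. Named genes were Spi1, every gene of the rule that passed with or without the block, the gene of highest mean CPM in each role, and up to 3 genes of each partner list with the smallest adjusted p with the block, or the most abundant gene where none passed. Lengths, coordinates and overlaps come from GENCODE M21 (GRCm38) by symbol, and promoters from RefSeq (GRCm38.p6). Nothing says that the cultures were independent beyond the label of biological replicates. The p-values without the block set the group difference against the spread between these samples, differences between numbers included. With the block they set it against the spread left after differences between numbers are taken off. The residual degrees of freedom were 2 with the block and 4 without it.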

Additional observations from a re-analysis of the deposited data

How the results depend on the processing

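Spi1 kept its direction and its call under every alternative run, between -2.36 and -2.14 on the log2 scale. With the replicate block, 4 of the 48 genes rose and 2 fell, 6 partner genes rose and 8 fell, and over all genes 1452 rose and 2206 fell. By DESeq2 with the block the counts were 4 and 2, 6 and 7, and 1436 and 1966. By DESeq2 without it 291 rose and 722 fell over all genes. With the block and a coding length correction they were 11 and 1, 18 and 8, and 1750 and 1999. With that correction alone 124 of all genes rose, and the median of the 48 was 0.06 against -0.07 as reported. Leaving out 1 library without the block gave 0 calls among the 48 each time, between 0 and 26 higher and 35 and 242 lower over all genes, and 0 or 1 partner genes lower, and moved the median of the 48 between -0.28 and 0.11. With the block, leaving out number 1 gave 0 calls among the 48, 0 partner genes higher and 2 lower, and 368 higher and 880 lower over all genes. Leaving out number 2 gave 2 and 12, 3 and 11, and 1310 and 2119. Leaving out number 3 gave 7 and 0, 17 and 10, and 2071 and 2677. The median of the 48 was then between -0.12 and 0.04.

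Without the block, 28 of the 48 genes changed sign when 1 library or another was left out, none with an adjusted p below 0.576. The like share over all genes was not computed, so this count does not set the 48 apart. Without untreated library 2, Kmt2a was 0.248, Kmt2c 0.203, Kmt2d 0.059, Ash1l 0.363 and Setd2 0.118. Of the genes named by rule, Setd7, Setd5, Dot1l, Nsd2, Kdm5c and Setdb1 changed sign under some alternative, all at an adjusted p above 0.05. Setd7 was 0.006 with median-ratio size factors and by DESeq2 and 0.011 with the length correction. Setd5 was 0.066 with the length correction and 0.062 with the block as well. With 1 library left out, Setd7 ran between -0.24 and 0.132, Setd5 between -0.497 and 0.165, Dot1l between -0.706 and 0.027, Nsd2 between -0.071 and 0.338, Kdm5c between -0.339 and 0.332 and Setdb1 between -0.206 and 0.196. With the block and without number 2, Kdm5c was -0.041 and Setdb1 -0.058, and without number 3 Setd7 was 0.079 and Setd5 0.064. The cause was not tested. Each gene below 1 CPM is limited by depth.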
